A study of Mus musculus with 6 samples.

Results

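The genes described here encode the receptors on which fast and modulatory neurotransmitters act. They are all GENCODE protein-coding mouse genes with a symbol of the AMPA (Gria), kainate (Grik), NMDA (Grin) and metabotropic (Grm) glutamate receptors, the GABA-A (Gabr), glycine (Glr) and nicotinic acetylcholine (Chrn) receptors, or the serotonin (Htr) and dopamine (Drd) receptors. This choice by symbol uses no measured value, but it was made with earlier results of these data known. It gave 83 of 21853 protein-coding genes. Of the 83, 58 encode subunits of ligand-gated ion channels and 25 encode G protein-coupled receptors.

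Chromatin from mouse embryonic stem cells (mESCs) was immunoprecipitated with the antibody ab4729 against H3K27ac, an acetylation of histone H3, and sequenced. All samples came from 1 line, E14Tg2A Rosa26-Cre Oct4-IRES-Puro in the labels and ES-E14TG2a in the paper, grown in N2B27 medium with LIF, PD0325901 and CT-99021, and each had chromatin of the human line HEK293T added as a spike-in. The 3 groups were control cells given DMSO, cells given 100 nM of the CDK9 inhibitor NVP-2 for 120 min, and cells given 800 nM of the DNA intercalator actinomycin D (ActD) for 120 min, with 2 replicates of each. The values below come from the list of 22973 H3K27ac peaks in control cells, in which both replicates are pooled, so there is no replicate error, no test was made, and the NVP-2 and ActD samples were not analysed here.

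Neurotransmitter receptors sit in the membrane of neurons and muscle cells. Ionotropic receptors are rings of subunits around an ion pore that opens when transmitter binds, whereas metabotropic receptors signal through G proteins. Embryonic stem cells are not neurons, and many neuronal genes are bound outside the nervous system by the repressor REST, which recognises a long DNA element called RE1. H3K27ac marks promoters and enhancers that are in use, so a peak at a transcription start site (TSS) is a common sign of an active promoter. The labelled cell type was checked with marker genes: all 8 pluripotency markers, among them Pou5f1, Nanog and Sox2, had a peak at the promoter. Of 12 neuron and neural progenitor markers, 4 had one (Sox1, Nes, Tubb3 and Stmn2). The other 8 did not, among them the neuronal genes Snap25, Syt1 and Rbfox3. The share of these 12 markers, 33.3% (Wilson interval 13.8 to 60.9%), is not set apart from the 48.8% of all protein-coding genes. The check therefore rests on the pluripotency markers, whose interval (67.6 to 100%) lies above 48.8%.

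The promoter letters below show kinds of annotated receptor gene starts, read from the reference genome and not from these cells. They are the 250 bases before the TSS in the GRCm38 genome, 5′ to 3′ on the strand of the gene, so the last base lies next to the TSS. The first 5 belong to the receptor genes with a promoter peak, the next (Htr7) to the receptor gene with the highest CpG content and no peak, and the last (Gabrg1) to the gene farthest from any peak. Capitals mark GC boxes, the letters GGGCGG on either strand.
Grik3, chr4:125490450-125490699, plus strand: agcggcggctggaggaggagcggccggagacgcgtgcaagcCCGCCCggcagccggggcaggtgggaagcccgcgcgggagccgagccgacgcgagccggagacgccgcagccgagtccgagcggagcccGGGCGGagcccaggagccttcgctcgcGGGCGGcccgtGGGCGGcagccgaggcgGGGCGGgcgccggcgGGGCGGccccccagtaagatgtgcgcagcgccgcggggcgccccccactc
Grik4, chr9:42944494-42944743, minus strand: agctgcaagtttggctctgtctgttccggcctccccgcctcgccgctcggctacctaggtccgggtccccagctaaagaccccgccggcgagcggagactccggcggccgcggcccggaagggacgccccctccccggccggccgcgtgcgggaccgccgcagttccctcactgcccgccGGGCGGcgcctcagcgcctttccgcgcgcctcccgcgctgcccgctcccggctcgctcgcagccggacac
Grik5, chr7:25072293-25072542, minus strand: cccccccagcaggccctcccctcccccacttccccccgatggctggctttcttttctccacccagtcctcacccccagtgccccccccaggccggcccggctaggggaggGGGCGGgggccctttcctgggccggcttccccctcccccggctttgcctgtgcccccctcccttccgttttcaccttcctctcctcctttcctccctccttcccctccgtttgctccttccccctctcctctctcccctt
Chrna4, chr2:181039076-181039325, minus strand: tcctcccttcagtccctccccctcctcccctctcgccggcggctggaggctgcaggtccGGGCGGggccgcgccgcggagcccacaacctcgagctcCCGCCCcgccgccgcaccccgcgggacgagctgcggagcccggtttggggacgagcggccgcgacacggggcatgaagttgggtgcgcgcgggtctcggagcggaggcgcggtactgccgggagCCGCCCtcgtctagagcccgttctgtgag
Chrna7, chr7:63212514-63212763, minus strand: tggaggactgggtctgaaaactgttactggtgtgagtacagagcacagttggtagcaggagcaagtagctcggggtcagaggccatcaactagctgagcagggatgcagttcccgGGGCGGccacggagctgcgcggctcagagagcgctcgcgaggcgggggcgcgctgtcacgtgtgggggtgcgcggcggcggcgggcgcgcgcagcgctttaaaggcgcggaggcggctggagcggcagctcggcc
Htr7, chr19:36057369-36057618, minus strand: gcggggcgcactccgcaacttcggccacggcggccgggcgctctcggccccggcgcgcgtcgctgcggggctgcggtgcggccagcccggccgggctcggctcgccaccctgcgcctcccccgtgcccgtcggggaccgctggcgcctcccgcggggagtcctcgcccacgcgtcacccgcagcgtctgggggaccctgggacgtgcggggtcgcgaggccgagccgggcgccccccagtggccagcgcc
Gabrg1, chr5:70842618-70842867, minus strand: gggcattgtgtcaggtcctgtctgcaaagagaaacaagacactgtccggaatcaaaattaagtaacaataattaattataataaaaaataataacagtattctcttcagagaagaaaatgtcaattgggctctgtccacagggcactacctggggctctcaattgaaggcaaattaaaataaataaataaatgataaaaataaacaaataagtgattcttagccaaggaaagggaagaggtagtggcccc
The promoters differ in composition. The 250 bases of Grik3 held 42 CpG dinucleotides and 6 GC boxes, those of Htr7 held 42 CpG and no GC box, and those of Gabrg1 held 1 CpG at 35.6% GC. A GC box lay upstream of the TSS in each of the 5 genes with a promoter peak. From 250 bases before to 50 after the TSS, it was found in 40 of the 83 receptor genes (48.2%) and in 45% of all coding genes. The letters TATAAA were found in the same window of 3 receptor genes (Chrnb1, Glra2 and Grin3b; 3.61%) and of 12.4% of all coding genes.

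Few receptor promoters carried H3K27ac. A peak lay within 1 kb of the TSS in 5 of the 83 genes, or 6.02% (95% Wilson interval 2.6 to 13.3%), against 48.8% of all protein-coding genes. With the TSS itself required inside a peak, 2 of the 83 genes (2.41%) and 44.2% of coding genes remained. The interval, like all those given here, covers counting error only. The 5 genes were the kainate receptor genes Grik3, Grik4 and Grik5 and the nicotinic receptor genes Chrna4 and Chrna7. The other 78 genes had no listed peak there. No receptor gene lay near the border of the 1 kb window: the outermost peak inside it was 233 bp from the TSS of Grik5, and the innermost outside it was 2.32 kb from the TSS of Grin2d.

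Kainate receptors were the class with the highest share, 3 of 5 genes (60%; 23.1 to 88.2%), but 1 of 5 (20%) when the TSS itself had to lie inside a peak. Nicotinic receptors followed with 2 of 16 (12.5%; 3.5 to 36%). Their share was 1 of 16 (6.25%) with the TSS inside a peak or with peaks of at least 1 kb, and 3 of 16 (18.8%) with any isoform. No promoter peak was listed for the 4 AMPA, 7 NMDA, 8 metabotropic glutamate, 19 GABA-A, 5 glycine, 14 serotonin or 5 dopamine receptor genes. For the GABA-A class a count of 0 allows a share of up to 15.8%, and for the 5 dopamine receptor genes up to 60%, so small classes say little. Without the kainate receptors, 2 of 78 genes had a peak (2.56%; 0.706 to 8.88%).

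**Figure D1:**
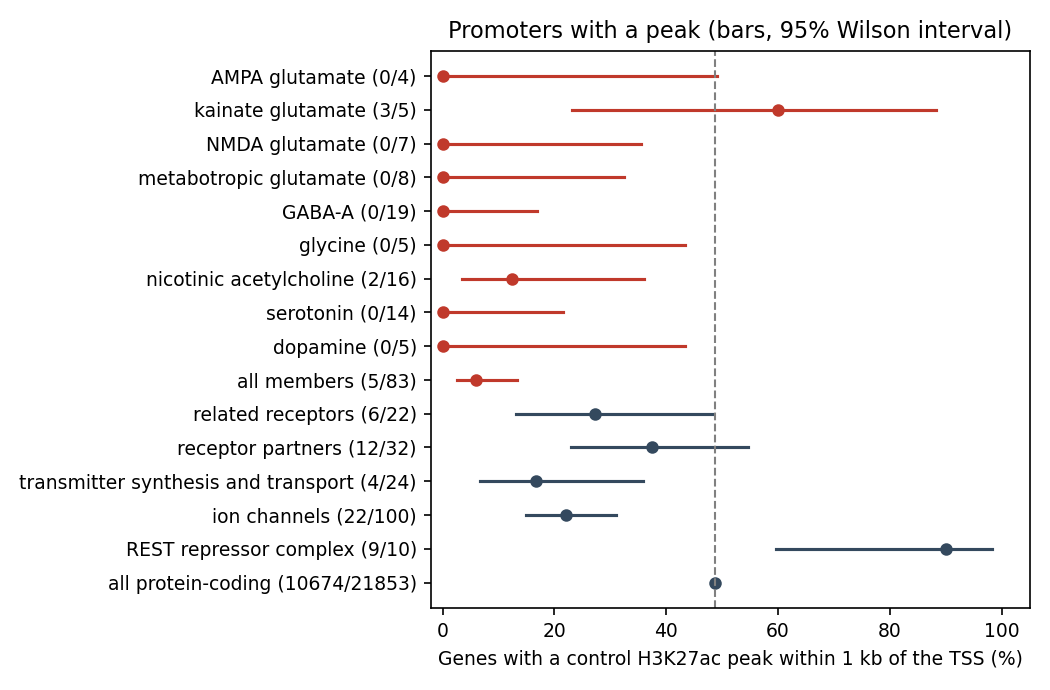
Percent of genes with a control H3K27ac peak within 1 kb of the TSS (x axis) for each receptor class and all 83 receptor genes (red) and for other gene lists (dark), with 95% Wilson intervals as bars and counts in brackets. The dashed line is the 48.8% of all protein-coding genes, and 7 of the 9 receptor classes sit at 0.

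Lists of genes that work with the receptors had higher shares, by a margin that shrank when peaks under 2 kb were left out. The shares were then 4.82% of the receptor genes, 9.09% of related receptors and 9.38% of receptor partners. They were 12.5% of synthesis and transport genes and 8% of ion channels, and the share of all coding genes was then 26%. Among 22 receptor genes of related kinds, 6 had a promoter peak (27.3%; 13.2 to 48.2%), namely the GABA-B subunit gene Gabbr1, the delta receptor gene Grid1 and the adrenergic receptor genes Adra1d, Adra2b, Adrb1 and Adrb3. Among 32 genes of proteins that anchor or assist receptors, 12 had one (37.5%; 22.9 to 54.7%), among them Gphn (gephyrin, the scaffold of glycine and GABA-A receptors), Gabarap, Homer1 and Dlg1. Among 24 genes for making and moving transmitters there were 4 (16.7%; 6.68 to 35.9%), among them Gad1, Maoa and Slc6a9. Voltage-gated and other ion channel genes, 100 in all, had 22 (22%; 15 to 31.1%). All of these intervals lie partly or wholly under the background of 48.8%, and the intervals of related receptors and synthesis genes overlap that of the 83 receptor genes. Of 10 genes of the REST repressor complex 9 had a promoter peak, and 8 had one of at least 2 kb, with Rest itself under a peak of 35403 bp.

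The kainate receptors split into marked and unmarked genes. Grik3, a subunit that forms channels with or without partners, had its TSS inside a 12670 bp peak (chr4:125486760-125499429), which reached from 3.94 kb before to 8.73 kb after the TSS over exon 1 and intron 1. It had 7 further peaks along its 223 kb, the most of any receptor gene, and 6 of them lay within the first 133 kb, in intron 1 or around exon 2. The widest of them was 31814 bp (chr4:125592079-125623892), wider than 99.3% of all peaks.

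Grik4 and Grik5 encode the high-affinity kainate subunits, which need a partner such as Grik1, Grik2 or Grik3 to form a channel. The peak of Grik4 (chr9:42941825-42944445, 2621 bp) began 48 bp downstream of the TSS and covered part of exon 1 and of intron 1, and 4 more peaks of 1857 to 12259 bp lay in introns 1 and 3 of this 426 kb gene. The peak of Grik5 (chr7:25072525-25078661, 6137 bp) lay wholly upstream, from 6.37 kb to 233 bp before the TSS. It also covered the TSS of Zfp574, a zinc finger gene on the opposite strand that starts 4.91 kb away, so the peak cannot be assigned to either gene from its position. Grik1 and Grik2 had no promoter peak, and their nearest peaks were 575 kb and 118 kb from the TSS. Grik2, 694 kb long, held a single peak of 5440 bp in intron 14, 648 kb from its start.

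Both marked nicotinic receptor genes encode subunits of the main receptors of the brain. Chrna4, which pairs with Chrnb2, had its TSS inside a 3866 bp peak (chr2:181035478-181039343) that reached from 268 bp before to 3.6 kb after it, over exons 1 and 2. Chrna7 encodes the subunit that can form a channel alone. Its peak (chr7:63212070-63212411) measured 342 bp, began 102 bp downstream of the TSS and lay over exon 2. Only 1.62% of all peaks were narrower, and the call was lost when peaks under 1 kb were left out. Chrnb2, the partner of Chrna4, had no promoter peak, and its nearest peak was 19.8 kb from the TSS.

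A further 3 genes had a peak only at the TSS of another isoform. In Chrna9, a subunit of the receptors of inner ear hair cells, a 466 bp peak covered a TSS 32.2 kb downstream of the one used, and in Grin2d, an NMDA receptor subunit, a 691 bp peak lay 162 bp from a TSS 3.3 kb downstream. In Grm4, a presynaptic metabotropic receptor, a 2227 bp peak lay 521 bp from a TSS 18.1 kb downstream. With all isoforms, 8 of 83 receptor genes had a promoter peak (9.64%; 4.97 to 17.9%), against 51% of coding genes.

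**Figure D2:**
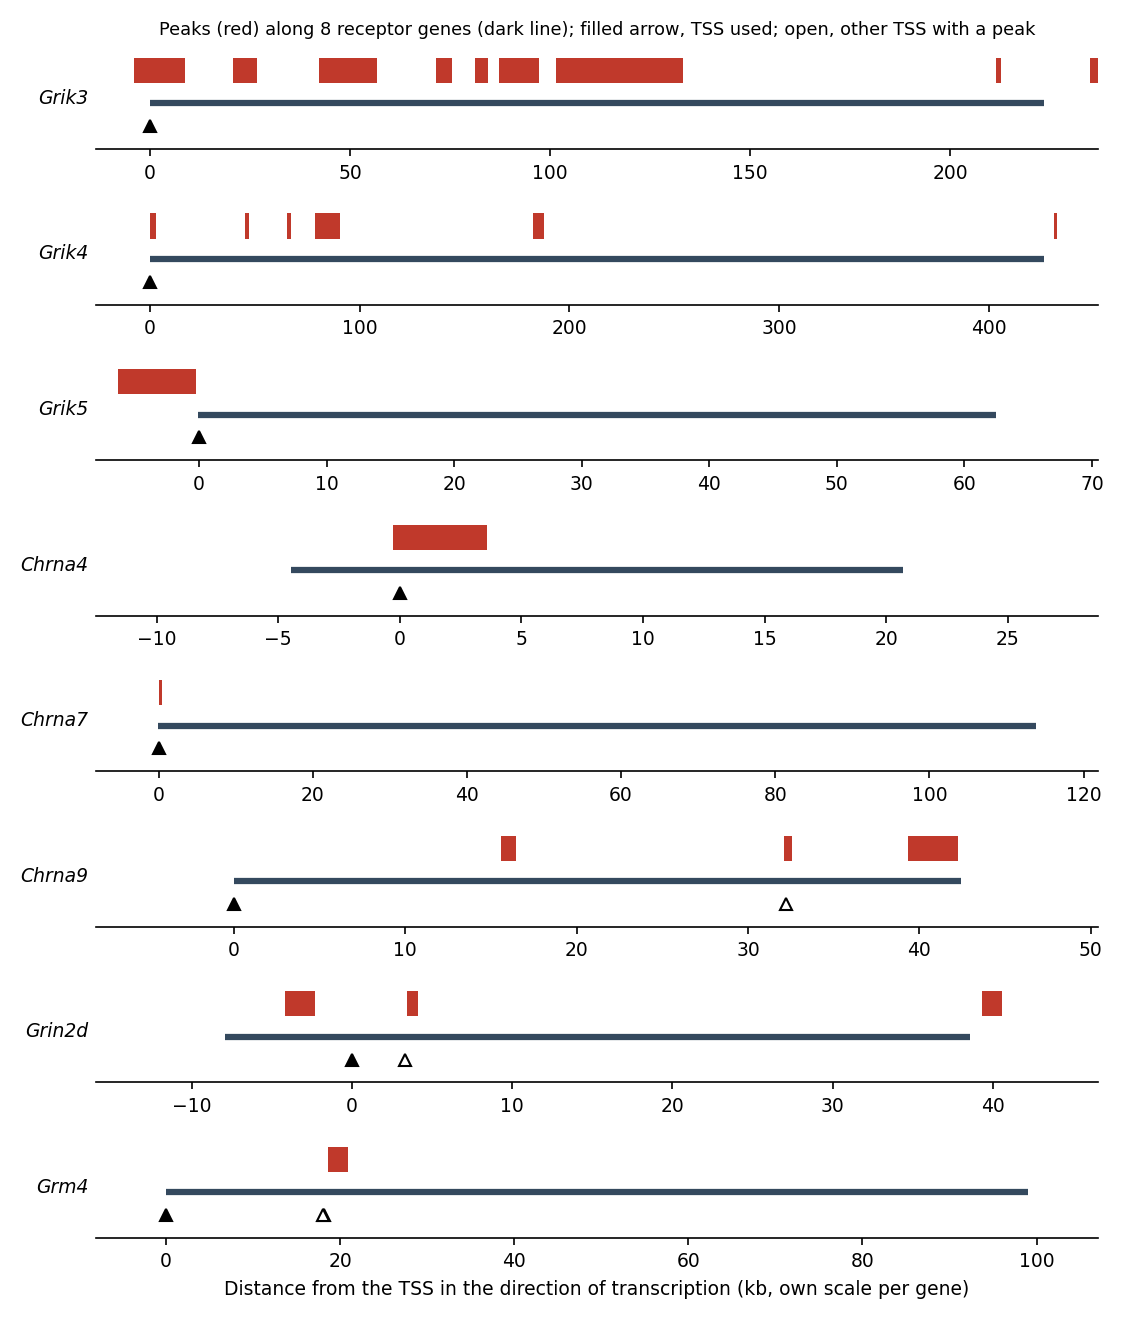
Control H3K27ac peaks (red boxes) along the 8 receptor genes with a peak at the promoter of any isoform (dark line), by distance in kb from the TSS used (filled arrow) in the direction of transcription, each gene on its own scale; open arrows are other TSSs with a peak, and peaks too narrow to see are widened. Grik3 and Grik4 carry 7 and 4 peaks beside the promoter peak, whereas Chrna7 has 1 narrow peak and no other.

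Away from the promoter, the median distance from the TSS to the nearest peak was 56.6 kb over the 83 genes (29.8 to 94.5 kb from order statistics) and 2.16 kb over all coding genes, where peaks at the TSS itself count as 0. For the receptor genes it was 137 kb with peaks of at least 2 kb and 25.7 kb when measured from the gene body. Among genes without a promoter peak the medians were close to each other, 69.7 kb (35.3 to 118 kb) for the 78 receptor genes and 60.3 kb (58 to 62.4 kb) for the 11179 coding genes. The interval of the receptor genes includes the median of the coding genes. A distance over 100 kb was found for 32 of them (41%), against 38.3% of unmarked coding genes. Of the 78 nearest peaks, 40 lay at the promoter of another gene, 19 within a gene and 19 between genes, and 10 of them overlapped the receptor gene itself.

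The neighbourhoods of the receptor genes held fewer gene starts. Within 500 kb on each side of the TSS, the median was 8 coding gene starts (5 to 12) and 7 peaks (4 to 12) for the receptor genes, against 15 gene starts and 15 peaks for all coding genes. Among genes without a promoter peak, the medians were 8.5 gene starts (5 to 12) and 7 peaks (4 to 11) for receptor genes and 16 gene starts and 10 peaks for coding genes, so for peaks the interval includes the coding median. The AMPA receptor genes had a median of 1 gene start and 1 peak, and the NMDA receptor genes 41 gene starts and 27 peaks. These counts, the distance limit of 100 kb and the split by CpG content and gene length below were chosen after the data were seen.

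**Figure D3:**
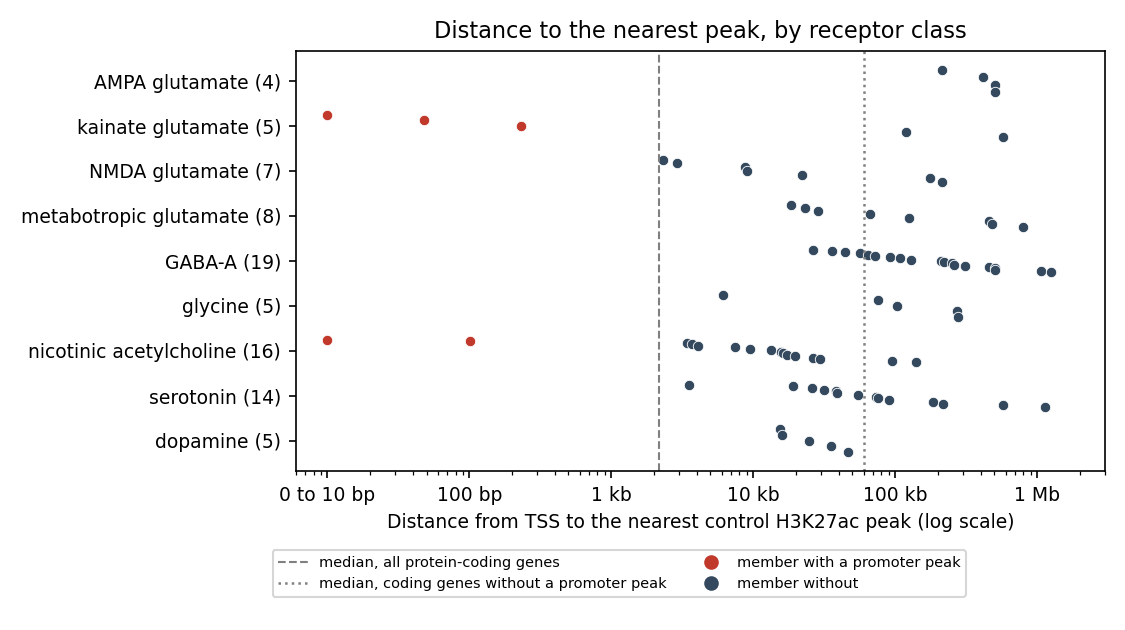
Distance from the TSS to the nearest control H3K27ac peak for each of the 83 receptor genes (log axis; distances from 0 to 10 bp are drawn at the left end), by class, with genes in brackets. The 5 genes with a promoter peak (red) lie within 233 bp, and the other 78 (dark) begin at 2.32 kb; the dashed line is the median of all coding genes and the dotted line that of coding genes without a promoter peak.

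AMPA receptors, which carry most fast excitation in the brain, all lay far from any peak. The distances were 214 kb for Gria2, 419 kb for Gria4, 505 kb for Gria3 and 506 kb for Gria1. Each of these 4 genes exceeds 100 kb in length, and none held a peak in its body. For 4 genes this allows a share of up to 75%, above the 54.1% of coding genes over 100 kb, so the count says little.

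NMDA receptors, channels that need both glutamate and a co-agonist, had peaks near several starts but none at the promoter of the isoform used. Grin1, the subunit shared by these receptors, had an intergenic 2754 bp peak 2.92 kb upstream. The peak 2.32 kb upstream of Grin2d covered the promoter of Kdelr1, whose TSS is 2.34 kb away. For Grin3b and Grin2c the nearest peaks, 8.77 kb and 9.11 kb away, covered the promoters of Wdr18 and Fdxr. Grin2b, the subunit that prevails in the embryonic brain, held 4 peaks of 1536 to 1837 bp, the nearest 22.1 kb from the TSS in intron 2 and the last in exon 14. Grin2a and Grin3a were 175 kb and 213 kb from a peak, and the single peak within Grin2a measured 173 bp.

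Metabotropic glutamate receptors ranged from 18.6 kb (Grm4) to 800 kb (Grm7). Grm6, the receptor of retinal bipolar cells, and Grm2 were 23.1 kb and 28.9 kb away. Grm8, Grm3 and Grm5 were 126 kb, 459 kb and 482 kb away. Grm7, at 922 kb the longest of the 83 genes, held 2 peaks of 7486 bp and 9009 bp, both in intron 8. The first of them was the nearest peak to its own TSS.

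Every GABA-A receptor gene lay at least 26.6 kb from a peak. These genes encode the chloride channels of fast inhibition, and the median of the 19 distances was 210 kb (64.4 to 457 kb). Nearest was Gabrp, followed by Gabrd, a subunit of receptors outside synapses, at 35.9 kb. The Gabrp peak is 34518 bp wide, covers its last exon and ends 61.1 kb from the TSS, beyond this 28.2 kb gene. The retinal rho subunit genes Gabrr2, Gabrr1 and Gabrr3 were 44.5, 56.6 and 64.4 kb from a peak. 

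Most GABA-A subunit genes lie in clusters, in which genes for alpha, beta and gamma subunits of 1 receptor are neighbours. On chromosome 5, Gabrg1, Gabra2, Gabra4 and Gabrb1 shared a stretch of 2575 kb without a peak between the promoter peaks of Gnpda2 and Commd8. Of 22952 gaps between neighbouring peaks, 60 were at least as long (0.261%). Gabrg1 (1250 kb) and Gabra2 (1071 kb) were the farthest and the third farthest of all receptor genes from a peak. Gabra4 and Gabrb1 start 195 bp apart on opposite strands and were both 509 kb away.

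No peak lay inside the GABA-A cluster on the X chromosome either. On the X chromosome, Gabre, Gabra3 and Gabrq lay in a peak-free stretch of 1100 kb, at 457, 261 and 92.4 kb from a peak. Among further clustered subunit genes, Gabra6 and Gabrb2 on chromosome 11 were 210 kb and 309 kb from a peak, and Gabra5 and Gabrg3 on chromosome 7 were 130 kb and 253 kb from one.

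**Figure D4:**
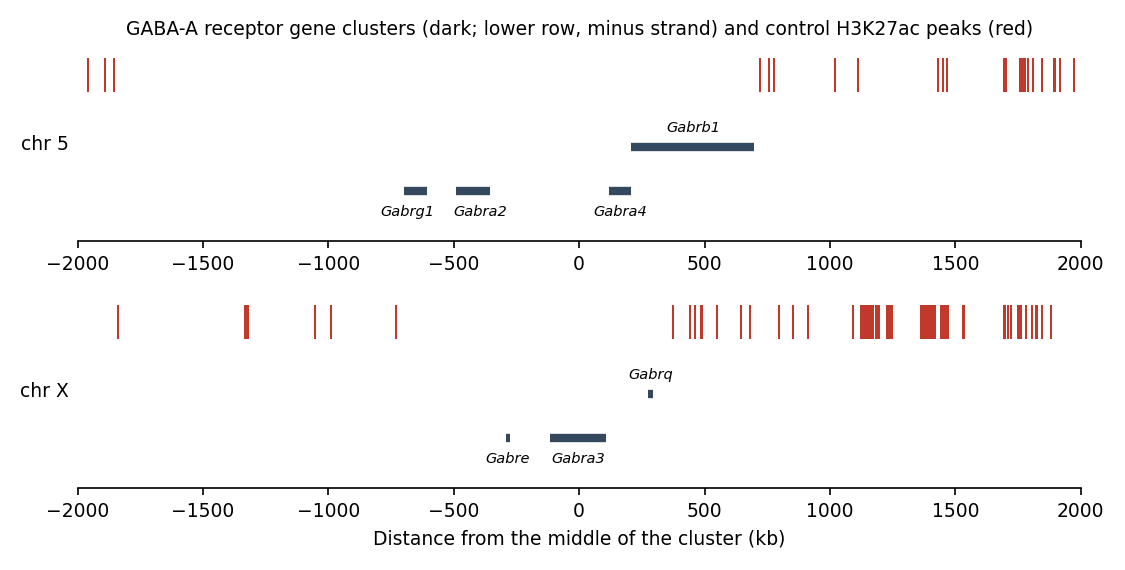
GABA-A receptor genes (dark bars; upper row plus strand, lower row minus strand) and control H3K27ac peaks (red; narrow peaks widened to 8 kb) by distance in kb from the middle of each cluster. The chromosome 5 genes lie in a peak-free stretch of 2575 kb and the X chromosome genes in one of 1100 kb.

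Glycine receptors, the inhibitory channels of spinal cord and brainstem, lay at 6.14 kb (Glra4), 76.3 kb (Glra1), 103 kb (Glrb), 271 kb (Glra2) and 277 kb (Glra3). None of the 5 held a peak in its body, which allows a share of up to 60%, above the 21.9% of coding genes. Glrb, the subunit that binds gephyrin, shares a peak-free stretch of 1106 kb on chromosome 3 with the AMPA receptor gene Gria2.

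Nicotinic receptor genes had a median distance of 14.5 kb over the 16 genes (3.7 to 26.5 kb), against 56.6 kb over all 83. The medians of the NMDA (9.11 kb) and kainate (0.233 kb) receptor genes were lower. Within 500 kb of the TSS, the nicotinic genes had medians of 16.5 gene starts and 20 peaks, against 8 and 7 for all 83. Among the muscle subunits, Chrnd was 3.43 kb from a peak within Prss56, Chrnb1 was 3.7 kb from the promoter peak of Fgf11, and Chrng was 7.46 kb from a 26971 bp peak at Eif4e2. Chrna1 and Chrne were 16.2 kb and 26.5 kb away. None of the 5 muscle subunit genes had a promoter peak, beside 12.5% of the nicotinic genes, 6.02% of all 83 receptor genes and 48.8% of coding genes. So small a count does not set the muscle subunits apart from the other receptor genes. Chrnb1 also held part of an 8115 bp peak over its exons 8 to 11 that reached into the neighbouring gene Zbtb4.

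In the cluster of Chrna5, Chrna3 and Chrnb4, which encodes a receptor of autonomic ganglia, the single peak (844 bp) lay in intron 1 and exon 2 of Chrnb4. It was 4.08 kb from the TSS of Chrnb4 and 17.3 kb from that of Chrna3, while Chrna5 was 29.8 kb from a peak on its other side. Chrna2, Chrna10 and Chrna9 were 9.56, 13.4 and 15.6 kb from a peak, and Chrna9 held 3 peaks. The pair Chrnb3 and Chrna6, subunits found in dopamine neurons, lay at 94.5 kb and 140 kb in a peak-free stretch of 384 kb.

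Serotonin receptors ranged from 3.53 kb (Htr5a, with an intergenic peak upstream) to 1138 kb (Htr1b), and none of the 14 genes held a peak in its body, which allows a share of up to 21.4%, near the 21.9% of coding genes. Htr3b and Htr3a, the channel subunits, were 19.1 kb and 73 kb away. Htr7, Htr1d, Htr5b, Htr2b and Htr6 lay between 25.8 kb and 54.4 kb. Htr4, Htr2a, Htr1a and Htr1f lay between 75.6 kb and 217 kb, and Htr2c on the X chromosome was 573 kb away.

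All 5 dopamine receptor genes lay between 15.4 kb and 46.9 kb from a peak. Drd3 held 2 peaks, the nearest 15.4 kb from the TSS in intron 2, and Drd2 held 1 of 2140 bp in intron 1 at 24.7 kb. Drd1 was 16.1 kb away, Drd4 35.3 kb and Drd5 46.9 kb. Drd2 forms a cluster with Htr3a and Htr3b in which 6 peaks lay, none at a receptor promoter. In all, 28 receptor genes formed 11 clusters, with members within 500 kb of each other. None of the 28 had a promoter peak, beside 6.02% of all 83 receptor genes and 48.8% of coding genes. No peak lay inside 7 clusters, of which Gabrg1 with Gabra2 and Gabrb1 with Gabra4 share 1 stretch. The stretches varied in length: that around Chrnd and Chrng, 26.1 kb, was matched or exceeded by 50.6% of all gaps between peaks, and that around Gabrr2 and Gabrr1, 171 kb, by 12.7%. For Chrnb3 with Chrna6 this share was 5.9%, and it was 1.66% both for Gria2 with Glrb and for the X chromosome cluster.

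The share of receptor genes with a peak inside was near the background, while peaks per length were fewer. A peak outside the promoter window overlapped 16 of the 83 genes, or 19.3% (12.2 to 29%), against 21.9% of coding genes. Receptor genes are long, with a median of 52 kb against 17.4 kb. Per length, 34 peaks over 11.9 Mb of receptor genes gave 2.85 peaks per Mb, and coding genes had 7.83. Among genes over 100 kb, 8 of 29 receptor genes held a peak (27.6%; 14.7 to 45.7%), against 54.1% of 2484 coding genes. Grik3 (7), Grik4 and Grin2b (4 each) and Chrna9 (3) held the most, followed by Grin2d, Drd3, Grm7 and Grm8 with 2 each. Of the 2 in Grin2d, 1 is the Kdelr1 promoter peak, upstream of the TSS used.

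Most coding promoters rich in CpG had a peak, and most such receptor promoters did not. Within 1 kb of the TSS, the ratio of observed to expected CpG had a median of 0.641 in coding genes with a promoter peak and 0.227 (0.223 to 0.232) in those without. Receptor genes without a peak had a median of 0.427 (0.347 to 0.468), between these values, and the 5 with a peak ranged from 0.373 to 0.821 (median 0.622). From 250 bases before to 50 after the TSS, the median was 0.467 without a peak and 0.994 with one. With peaks at any isoform counted, and CpG measured within 1 kb of the TSS with the peak, the median of the 8 marked genes was 0.571. At the 3 starts added the ratio was 0.632 (Grin2d), 0.38 (Grm4) and 0.364 (Chrna9). Unmarked ion channel genes had a similar median of 0.458 (0.355 to 0.509).

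A window was called CpG-rich with a ratio of at least 0.6 and a GC content over 50%. Of all CpG-rich coding promoters 83.1% had a peak, and of the 15 CpG-rich receptor promoters 3 had one (Grik3, Grik4 and Chrna7; 20%, 7.05 to 45.2%). Among promoters that were not CpG-rich, the shares were 33.8% of coding genes and 2 of 68 receptor genes (2.94%; 0.81 to 10.1%). In both groups the interval of the receptor genes lay under the share of all coding genes. The 12 CpG-rich promoters without a peak were those of Htr7 (0.832), Gabra5 (0.783), Chrna5 (0.749), Grin3a (0.71), Glrb (0.665), Htr6 (0.661), Grin2a, Drd2, Grm8, Grik1, Grin1 and Grm6 (0.614 to 0.637 for the last 6).

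**Figure D5:**
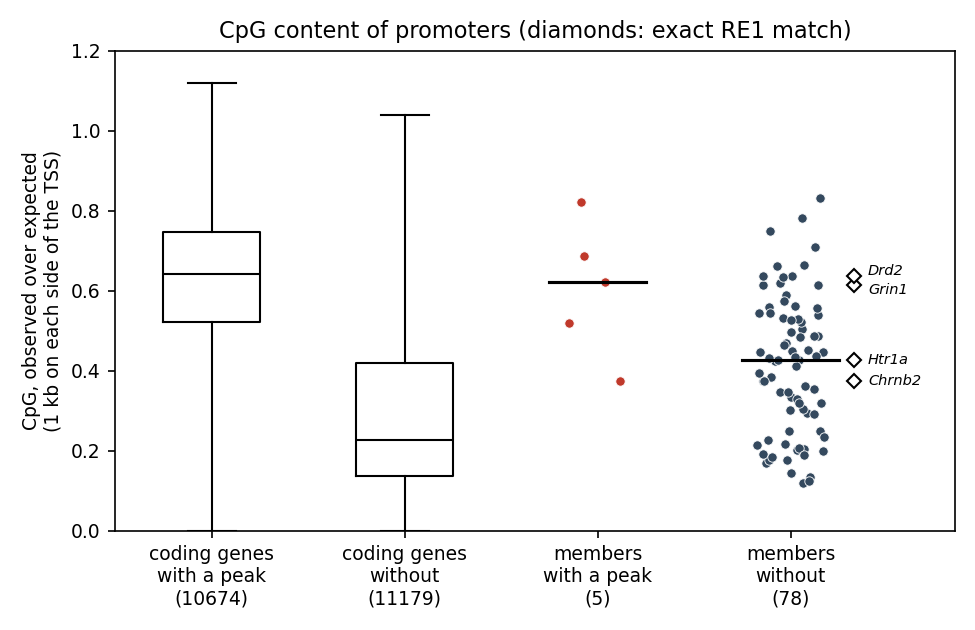
Observed over expected CpG within 1 kb of the TSS. Boxes show the quartiles, median and full range of coding genes with and without a promoter peak; points are the receptor genes, lines their medians (0.622 with a peak, 0.427 without), and open diamonds repeat the 4 receptor genes with an RE1 match without mismatch.

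The RE1 element was searched as the motif parts CAGCACC and GGACAGC with a gap of 2 bases, on both strands within 1 kb of the TSS. A match without mismatch was found in 4 of the 83 receptor genes, or 4.82% (1.89 to 11.7%), and in 37 of all coding genes, or 0.169%. The 4 genes are Grin1, Chrnb2, the dopamine receptor gene Drd2 and the serotonin receptor gene Htr1a. Their matches are printed because the share of receptor promoters with the element exceeded that of coding promoters. None of the 4 carried a peak, and since 6.02% of all 83 receptor genes did, so small a count does not relate the element to the lack of a peak. The sequences are from GRCm38, 5′ to 3′ on the strand of the match, with both motif parts in capitals.
Grin1, chr2:25319014-25319035, minus strand: cttCAGCACCtcGGACAGCacc
Chrnb2, chr3:89764454-89764475, minus strand: cttCAGCACCacGGACAGCgct
Drd2, chr9:49341196-49341217, minus strand: attCAGCACCaaGGACAGCaga
Htr1a, chr13:105442785-105442806, minus strand: gttCAGCACCcgGGACAGCtct
In Grin1 and Chrnb2 the match lay in the 5′ UTR in exon 1, 162 bp and 143 bp downstream of the TSS. In Drd2 it lay in intron 1, 580 bp downstream, and in Htr1a it lay 843 bp upstream of the TSS. Of the 37 coding genes with a match, which include these 4 receptor genes, 4 had a promoter peak (10.8%), against 48.8% of all coding genes.

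With 1 mismatch allowed, 11 receptor promoters matched (13.3%), Drd3, Gabrd, Glra1, Glra3, Gria2 and Htr5a among those added, against 0.737% of coding genes. None of these 11 had a promoter peak, a count near the 6.02% of all receptor genes. Of the matching coding promoters, these 11 among them, 30.4% had one, against 48.8% of all coding promoters. With 2 mismatches, 18 receptor promoters matched (21.7%), against 5.53% of coding genes. They were 2 of the 5 receptor genes with a promoter peak (40%; Chrna7 and Grik5) and 16 of the 78 without (20.5%), so the order was the opposite of that with fewer mismatches. Of the matching coding promoters 49.3% had a peak, near the 48.8% of all coding promoters. Within 5 kb of the TSS, 5 receptor genes (6.02%) and 0.384% of coding genes had a match without mismatch. The matches describe letters of the genome, and binding of REST was not measured here.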

How the data were processed

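H3K27ac ChIP-seq was performed in control, NVP-2 and ActD treated mESCs, and the authors deposited the peak list of the control cells used here. Its values are positions in base pairs (chromosome, start and end, mm10), with no height, score or count, so the depth cannot be read from it and it allows no comparison of replicates, treatments or peak heights. Changes of peaks after treatment were not analysed here. Per the methods, the authors aligned the reads to mouse and human genomes together, removed duplicates, called peaks with LanceOtron, merged close peaks and kept those above height thresholds near ATAC-seq summits, so a promoter without a listed peak may still carry signal. The submitters' processing notes name cutadapt, BWA, Picard 2.9.1 and SAMtools 1.4.

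Peaks were compared with the GRCm38 genome and GENCODE release M21, an earlier release than the one the paper names. The isoform with the longest genomic span gave the TSS, the promoter was 1 kb on each side, and an overlap of 1 bp counted. Coordinates are printed 1-based. Shares have 95% Wilson intervals, medians have intervals from order statistics, and an observed count of 0 was given the limit that 3 counts allow. Members, gene lists and summaries were chosen with earlier results of these data known. Named genes are those with a promoter peak or a peak at another isoform, those within 5 kb of a peak, the 5 with the most peaks in the body, the 10 farthest from a peak, all in clusters and those with an RE1 match without mismatch. Most remaining receptor genes were named after their values were seen. Results for some named genes are not reported here, although the genes are counted in the totals. Alternatives were other windows, isoforms, peak widths, overlaps and motif mismatches. The overlap and distance functions were checked on simulated data. Python 3.11.15, numpy 2.4.6, pandas 2.3.3, scipy 1.17.1, pysam 0.24.0 and matplotlib 3.10.9 were used.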

Additional observations from a re-analysis of the deposited data

How the results depend on the processing

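With the TSS itself required inside a peak, the share of receptor genes was 2.41% (Grik3 and Chrna4) against 44.2% of coding genes, that of kainate receptors 20% and that of ion channels 15%. With peaks at least 1 kb wide, ion channels had 15%. With peaks at least 2 kb wide, the receptor genes had 4.82%, related receptors had 9.09%, receptor partners 9.38% and ion channels 8%, against 26% of coding genes, and the median distance was 137 kb. Measured from the gene body, the median distance was 25.7 kb. With any isoform, or that of longest spliced length, the REST complex had 100%. From 250 bases before to 50 after the TSS, marked receptor promoters had a CpG ratio of 0.994 and unmarked ones 0.467, and with peaks at any isoform the ratios were 0.446 and 0.431 around the TSS used, which for 3 genes is not the one with the peak, and 0.571 for marked genes around the TSS with the peak, an alternative chosen after seeing the data. RE1 matches rose to 13.3% with 1 mismatch and 21.7% with 2. Chrna7 lost its call under 4 settings: TSS inside, overlap of at least 500 bp, and peaks of at least 1 or 2 kb. Grik4 and Grik5 lost theirs with the TSS inside. The other alternatives moved class, gene body and total shares by less than their intervals. No paired analysis was possible because both control replicates are pooled in 1 list, and no replicate could be left out.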
